A study of Saccharomyces cerevisiae with 26 samples.

Results

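The subtelomeric regions of budding yeast (Saccharomyces cerevisiae) are described here as the windows of 1 kb lying within 30 kb of a chromosome end. They were chosen by position alone, from the first and last bin of each chromosome in the deposited tables, with chromosomes III and VI left out. This gave 834 windows at the 28 ends of 14 chromosomes, of 12063 windows on 16 chromosomes. A further 119 windows lie at the ends of III and VI, and 11110 lie over 30 kb from any end.

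The study measured replication and transcription in strains lacking the Forkhead genes FKH1 and FKH2, with WT as the control. DNA labelled with BrdU, a thymidine analogue built into new DNA, was immunoprecipitated and sequenced in 10 libraries from 5 strains, which are WT, fkh1Δ, fkh2Δ, the double mutant fkh1Δfkh2Δ and a strain labelled fkh1Δfkh2Δ2C. These cells stayed 4 hours in α-factor, the mating pheromone that stops the cycle in G1. They then spent 1 hour with BrdU and hydroxyurea, which starves replication forks of nucleotides, so that label collects around the origins that fired. Stranded RNA was sequenced in 8 libraries, and so was DNA bound by the RNA polymerase II subunit Rpb3, in both cases from WT and fkh1Δfkh2Δ2C. These came from asynchronous cultures or from cultures arrested for 4 hours by the pheromone. Each group has 2 libraries. All cultures grew in rich medium at room temperature, the labels leave 2C unexplained, and no label says whether each deletion strain is 1 clone.

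Yeast chromosome ends carry telomere repeats followed by X elements and, at some ends, longer Y' elements, which encode helicase-like proteins and are nearly identical between ends. The Sir proteins spread inward from the telomere and silence genes. Gene families for sugar, metal and vitamin use, and cell wall families such as the seripauperins, lie beside them. Replication origins near telomeres usually fire late in S phase or rarely, and telomere-bound proteins such as Rif1 and the Ku complex delay them. Forkhead proteins bind near many origins elsewhere in the genome and advance their firing, and they also control genes of the cell cycle.

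Values are the authors' normalized signal per 50 bp bin, averaged over each window or gene. Read depth is unknown, so counting intervals and detection floors could not be given, and the limit on precision is 2 libraries a group. Sorted by size, the values of all libraries of an assay nearly coincide, so a difference is one of place along the genome and not of total. Nothing in the labels says that the libraries of a group came from separate cultures, so the spread behind each p-value is only that of the samples at hand and may be technical. Subtelomeric bins were often listed at 0 in every library, 15.3% of them for BrdU against 0.867% of bins over 30 kb from an end, and 31.95% for Rpb3 against 3.23%. That share was 39.0% for BrdU within 5 kb of an end. Places without signal and repeats whose reads were not assigned cannot be told apart in the files. Coordinates are 1-based and as the files give them, with no build named.

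The deleted genes were checked first. Over FKH1, BrdU signal was 65.3% and 68.5% of the flanking 1 kb stretches in fkh1Δ and 73.6% to 84.1% in the double mutants, against 87.4% to 92.0% in WT and fkh2Δ. The library labelled fkh2Δ replicate 2 has a strain tag that reads fkh1Δ. Its BrdU signal over FKH2 was 40.9% of its flanks, and 43.5% in fkh2Δ replicate 1, against 103% in both WT libraries. It was also the 1 BrdU library with signal over BAR1, the gene of a protease that degrades α-factor, at 2.56 against at most 0.0546 in the others. The library labelled fkh1Δfkh2Δ2C replicate 1 showed no such dip, at 96.8% of its flanks, while replicate 2 was at 62.4%. The library labelled fkh1Δfkh2Δ replicate 1 was at 68.2% and replicate 2 at 39.6%. Over FKH1, Rpb3 signal was 4.31% to 14.3% of the flanks in the 4 libraries of fkh1Δfkh2Δ2C and 93.5% to 112% in WT. Over FKH2 the Rpb3 signal itself was not lost in libraries labelled fkh1Δfkh2Δ2C, at 36.0 to 45.3 against 27.5 to 38.5 in WT. As a share of the flanks it was lower, at 32.9% to 56.7% against 60.7% to 120% in WT. The flanks themselves were higher in those libraries, at 69.3 to 109 against 28.2 to 58.6 in WT. RNA of FKH2 was not lost either, at 1.26 in the 1 asynchronous library of fkh1Δfkh2Δ2C with a value and 0.579 and 1.34 in G1, against 0.628, 0.230 and 0.159 in WT. RNA of FKH1 was listed at 0 in all 3 of those mutant libraries and was 0.116 to 0.621 in WT. The RNA and Rpb3 signal that remained over FKH2 goes against a deletion of the whole gene in the RNA and Rpb3 libraries labelled fkh1Δfkh2Δ2C. That name and the term double mutant are therefore used below as labels only. Window and peak counts of a BrdU strain are also given without its doubted library, labelled fkh2Δ replicate 2, fkh1Δfkh2Δ replicate 1 or fkh1Δfkh2Δ2C replicate 1.

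BrdU signal near chromosome ends was low in WT and lower still in the strains labelled as double mutants. Over the 834 windows the mean signal was 3.94 and 3.83 in the WT libraries, against 10.4 in windows over 30 kb from an end. It was 3.30 and 3.18 in fkh1Δ, 3.95 and 4.07 in fkh2Δ, 1.96 and 1.98 in fkh1Δfkh2Δ, and 1.96 and 1.91 in fkh1Δfkh2Δ2C. The fkh1Δ libraries lay below both WT libraries, those of the double mutants lay below all others, and the fkh2Δ libraries lay just above both WT libraries. As a share of WT (3.89 ± 0.0742, SD, n = 2), the group means were 83.3% in fkh1Δ, 103% in fkh2Δ, 50.7% in fkh1Δfkh2Δ and 49.7% in fkh1Δfkh2Δ2C. In windows over 30 kb from an end the same shares were 101%, 99.9%, 102% and 102%. Those windows hold most of the signal, and sorted values of the libraries nearly coincide. Their shares therefore stay close to WT whatever happens near the ends, and they are not a separate control.

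A pair of ends held much of the subtelomeric signal. Without the right ends of chromosomes XIII and IX, the mean was 2.18 in WT, 1.35 in fkh1Δfkh2Δ and 1.29 in fkh1Δfkh2Δ2C, so that the double mutants had 61.7% and 59.3% of WT. The share was 81.4% for fkh1Δ and 108% for fkh2Δ under that omission. Medians over the windows differed less than means, at 1.59 in WT, 1.52 in fkh1Δ, 1.61 in fkh2Δ, 1.44 in fkh1Δfkh2Δ and 1.29 in fkh1Δfkh2Δ2C. At the ends of III and VI the share of the WT mean was 87.6% in fkh1Δ, 97.9% in fkh2Δ, 95.3% in fkh1Δfkh2Δ and 73.8% in fkh1Δfkh2Δ2C.

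Mean signal in WT was lowest within 5 kb of an end and highest from 25 to 30 kb. It was 0.907 ± 0.0614 within 5 kb, between 2.22 and 2.43 in the 3 steps from 5 to 20 kb, 4.54 ± 0.0184 from 20 to 25 kb and 10.8 ± 0.332 from 25 to 30 kb. The first step had 39.0% of its bins listed at 0. The last step holds the peaks near the right ends of IX and XIII, with WT means of 127 and 102. In fkh1Δfkh2Δ2C the corresponding means were 0.335 within 5 kb, 1.03 to 1.40 from 5 to 20 kb, 2.80 from 20 to 25 kb and 4.75 from 25 to 30 kb. The fkh1Δfkh2Δ values were 0.416, 0.964 to 1.52, 3.07 and 4.56. In fkh2Δ the means from 5 to 10 kb and from 10 to 15 kb were 2.62 ± 0.173 and 2.90 ± 0.0926, against 2.25 ± 0.0581 and 2.43 ± 0.216 in WT. The 30 kb limit cut through signal, since the last windows inside it had a WT mean of 10.9 and the first windows outside it 10.5.

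**Figure D1:**
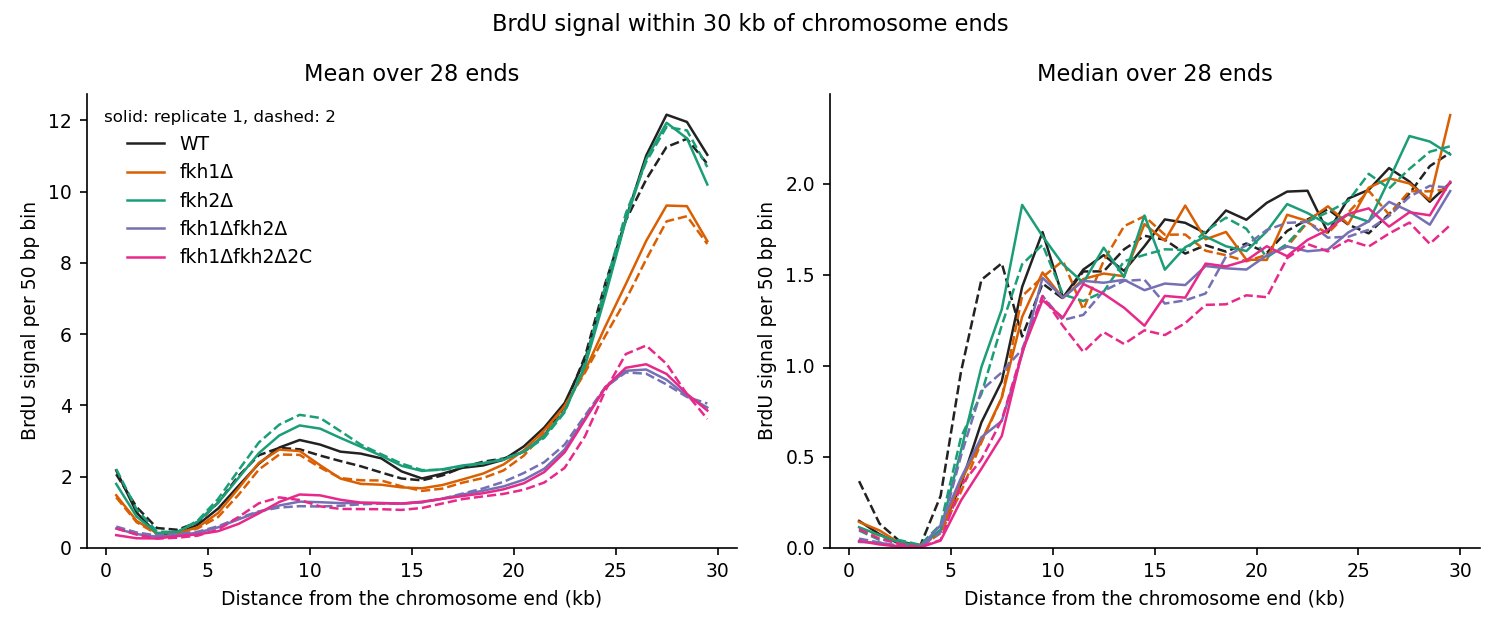
Mean (left) and median (right) BrdU signal over the 28 ends in each of 10 libraries, by distance from the chromosome end in kb, with solid lines for replicate 1 and dashed lines for replicate 2. The first kb holds 22 windows and each later kb holds 28. The 4 double-mutant libraries run below the others in the left panel, while the medians on the right lie close together beyond 10 kb.

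The ends differed widely among themselves. In WT the mean over an end ran from 0.0718 ± 0.0289 at the right end of I to 27.6 ± 1.73 at the right end of IX, with a median of 2.22 over the 28 ends. The mean exceeded the genome median of 2.605 at 7 ends, which were both ends of XIII and the right ends of II, V, IX and XVI, with the left end of VII. Both fkh1Δfkh2Δ2C libraries lay below both WT libraries at 21 of 28 ends and above them at 1, the right end of VII. For fkh1Δfkh2Δ these counts were 19 below and 3 above. For fkh1Δ they were 14 below and 1 above, the right end of V, and for fkh2Δ they were 2 below and 6 above. No such count was made for stretches elsewhere in the genome, so these counts only describe the ends.

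The right end of IX showed the widest contrast between strains. Its mean was 28.8 and 26.4 in WT, 28.4 and 28.7 in fkh1Δ, 24.2 and 25.7 in fkh2Δ, 2.75 and 2.36 in fkh1Δfkh2Δ, and 3.32 and 3.46 in fkh1Δfkh2Δ2C. Only the double-mutant libraries were low there. At the right end of II it was 6.62 and 6.05 in WT, 1.73 and 1.68 in fkh1Δ, 8.80 and 9.49 in fkh2Δ, 1.84 and 1.97 in fkh1Δfkh2Δ, and 1.62 and 1.54 in fkh1Δfkh2Δ2C. There the fkh1Δ libraries were as low as the double mutants, and the fkh2Δ libraries were above both WT libraries. The right end of V had 7.09 and 7.14 in WT, 10.003 and 9.59 in fkh1Δ, 7.05 and 7.47 in fkh2Δ, 4.50 and 3.80 in fkh1Δfkh2Δ, and 5.45 and 5.71 in fkh1Δfkh2Δ2C. It was high in fkh1Δ and low in both double mutants, with no overlap of either with WT.

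**Figure D2:**
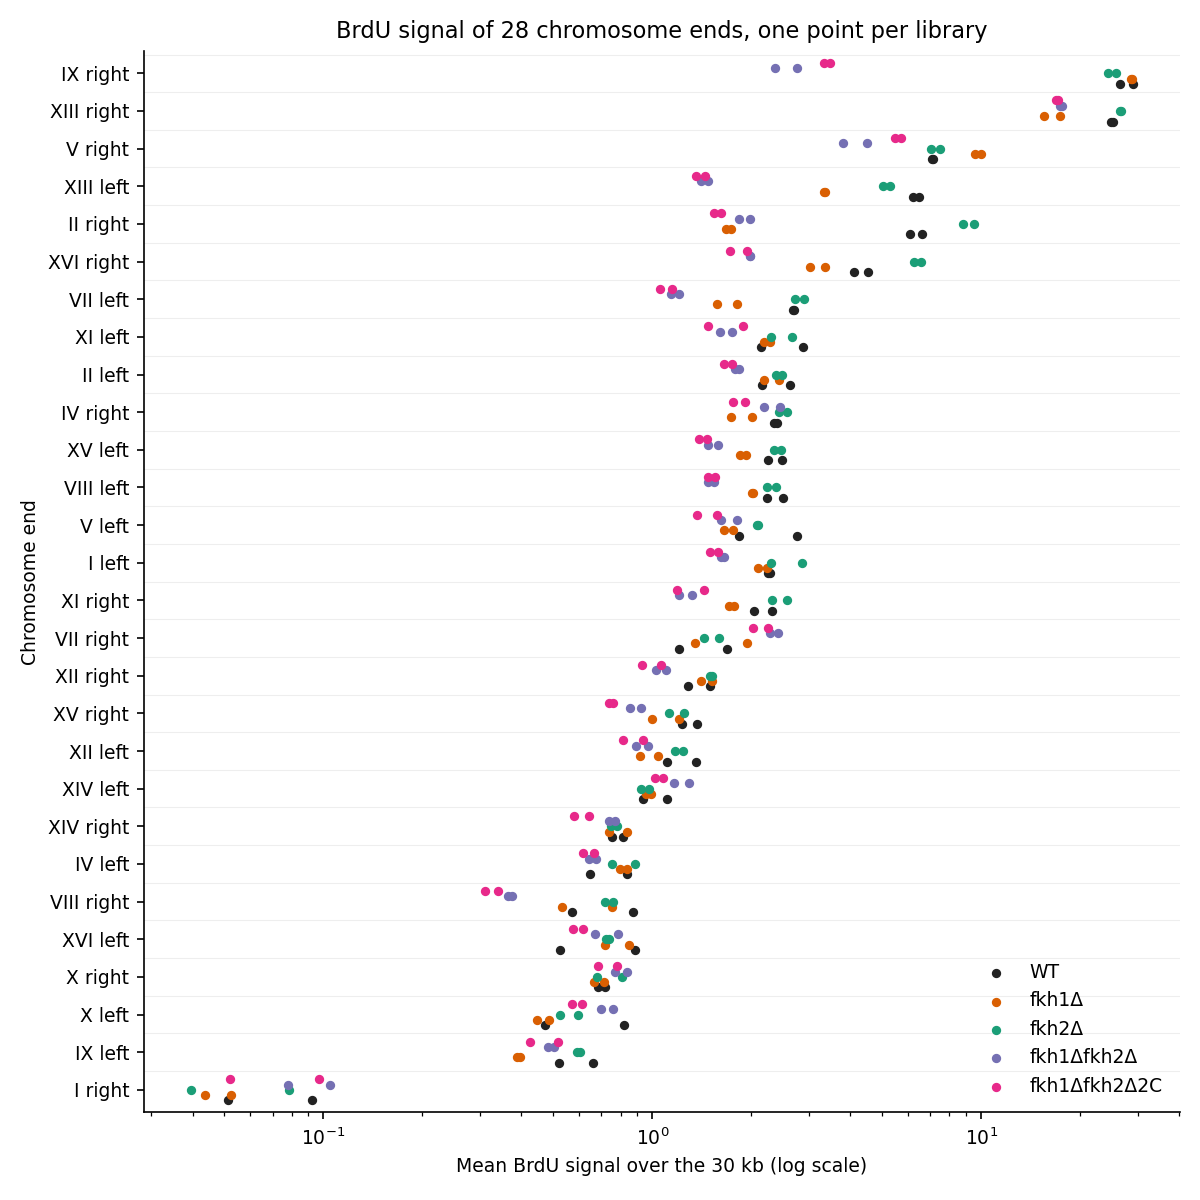
Mean BrdU signal over the 30 kb of each of 28 chromosome ends on a log scale, with 1 point per library and ends ordered by their WT mean. The WT points run from about 0.0718 at the right end of I to 27.6 at the right end of IX, and the double-mutant points lie left of WT at most ends.

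BrdU peaks mark the places where label gathered. Of 391 peaks in the genome, 11 lay within 30 kb of the 28 ends, on chromosomes II, IV, V, VII, IX, XIII and XVI. A peak was a local maximum of the highest group mean of at least 3 times the genome median, and its value is the mean signal within 2500 bp of its centre. A peak could enter through a single group where it was high, so the counts only describe the peaks. The peaks were tested with limma (2-sided, Benjamini-Hochberg adjusted over all 391, called at an adjusted p under 0.05). Against WT, 1 rose and 7 fell in fkh1Δ, where 21.5% of all peaks rose and 30.7% fell, or 52.2% in either direction. In fkh1Δfkh2Δ, 0 rose and 9 fell (background 41.2% and 41.9%), and in fkh1Δfkh2Δ2C, 1 rose and 10 fell (background 45.8% and 36.3%). These comparisons share the WT libraries. The median log2 change of the 11 peaks was -0.44, -1.01 and -0.85 in these 3 strains, against -0.073, 0.0084 and 0.21 over all peaks.

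In fkh2Δ limma called 0 of the 11 peaks (background 0% in either direction), 4 passed an unadjusted p under 0.05, and those 4 were all higher than WT. Peaks could be kept through a high fkh2Δ mean, so nothing is read from that direction. Without either fkh1Δfkh2Δ2C library, 4 peaks passed the adjusted threshold in fkh2Δ, and without the library labelled fkh2Δ replicate 2, 0 passed. Without either fkh1Δ library, 5 of the 8 calls of fkh1Δ were left. Without the library labelled fkh1Δfkh2Δ replicate 1, 9 peaks were called in fkh1Δfkh2Δ, and without the library labelled fkh1Δfkh2Δ2C replicate 1, 11 were called in that strain.

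The peak between MAL33, an activator of maltose genes, and MAL31, a maltose permease, lay at 802126 on chromosome II, 11.02 kb from the right end. Its signal reached 24.998 and 19.6 in WT and was 2.00 and 1.91 in fkh1Δ, 32.8 and 37.0 in fkh2Δ, 1.95 and 1.99 in fkh1Δfkh2Δ, and 1.97 and 1.75 in fkh1Δfkh2Δ2C. All 6 libraries of strains labelled as lacking FKH1 were between 1.75 and 2.00, and all WT and fkh2Δ libraries were far above them. The log2 change in fkh1Δ was -2.63 (SE 0.143, limma adjusted p = 4.42e-07), and it was -2.62 in fkh1Δfkh2Δ and -2.66 in fkh1Δfkh2Δ2C. In fkh2Δ it was 0.61 (limma adjusted p = 0.113).

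A second pattern appeared at 411826 on chromosome IX, 28.02 kb from the right end, between DAL2 and DCG1 in the cluster of genes for allantoin use. Its signal was 135 and 120 in WT, 120 and 121 in fkh1Δ, 116 and 124 in fkh2Δ, 8.32 and 5.82 in fkh1Δfkh2Δ, and 11.1 and 12.9 in fkh1Δfkh2Δ2C. The single mutants overlapped WT and the double mutants stood far below. The log2 change was -3.85 (SE 0.144, limma adjusted p = 3.83e-09) in fkh1Δfkh2Δ and -3.21 (adjusted p = 1.79e-08) in fkh1Δfkh2Δ2C, against -0.074 in fkh1Δ and -0.081 in fkh2Δ.

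The peak at 567926 on chromosome V, 8.92 kb from the right end between YER187W and YER188W, moved in opposite directions. Its signal was 20.9 and 19.8 in WT, 32.2 and 30.6 in fkh1Δ, 19.0 and 20.9 in fkh2Δ, 6.79 and 4.24 in fkh1Δfkh2Δ, and 10.5 and 11.2 in fkh1Δfkh2Δ2C. It rose in fkh1Δ (log2 change 0.58, SE 0.172, limma adjusted p = 0.0152), a call that was lost without WT replicate 2 and without either fkh1Δ library. It fell in fkh1Δfkh2Δ (-1.60, adjusted p = 6.65e-06) and in fkh1Δfkh2Δ2C (-0.80, adjusted p = 0.00123).

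The strongest peak of chromosome XIII near its right end, at 898176 between GLC8, a regulator of protein phosphatase, and ELP6, an Elongator subunit, kept more of its signal. It was 104 and 100.5 in WT, 66.7 and 59.6 in fkh1Δ, 114 and 113 in fkh2Δ, 67.6 and 66.1 in fkh1Δfkh2Δ, and 68.9 and 73.3 in fkh1Δfkh2Δ2C. All 3 strains labelled as lacking FKH1 lay at similar levels below WT, with log2 changes of -0.68, -0.60 and -0.51. The peak at 17776 on chromosome VII, between ADH4, an alcohol dehydrogenase, and ZRT1, a zinc transporter, was graded. It had 9.86 and 8.76 in WT, 4.85 and 3.90 in fkh1Δ, 9.09 and 10.1 in fkh2Δ, 1.82 and 1.91 in fkh1Δfkh2Δ, and 1.74 and 1.79 in fkh1Δfkh2Δ2C. Its log2 change was -0.84 in fkh1Δ (limma adjusted p = 0.000299) and -1.56 and -1.60 in the double mutants.

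Chromosome XVI carried 3 weaker peaks near its right end, at 927226 beside OPT2, an oligopeptide transporter, at 933676 beside SGE1, a drug efflux pump, and at 941926 beside ARR3, an arsenite exporter. Their WT means were 6.02, 6.82 and 6.40. The inner peak had 6.21 and 5.79 in the fkh1Δ libraries, where the means of the middle and outer ones were 3.03 and 4.23. Those in fkh2Δ were 8.97, 9.82 and 9.76. In fkh1Δfkh2Δ they were 3.34, 2.39 and 1.198, and in fkh1Δfkh2Δ2C 3.18, 2.19 and 1.09. The middle and outer peaks fell in fkh1Δ (log2 changes -0.82 and -0.44) while the inner one was not called (0.0011, SE 0.132). The call of the outer peak was lost under median centring, without WT replicate 1 and without fkh1Δ replicate 2. All 3 fell in both double mutants. In fkh2Δ their log2 changes were 0.46, 0.42 and 0.49, with limma adjusted p from 0.113 to 0.128.

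The last peaks were small. At 915676 on XIII, beside the iron transporter gene FET4, the means were 5.59 in WT, 4.05 in fkh1Δ, 1.87 in fkh1Δfkh2Δ and 2.21 in fkh1Δfkh2Δ2C. Its fall in fkh1Δ was lost under median centring, without WT replicate 2 and without any 1 library of fkh1Δ or fkh1Δfkh2Δ. At 1502526 on IV, between HSP31 and FIT1, they were 7.57, 4.67, 7.03 and 5.42, and the value of fkh1Δfkh2Δ was not called (log2 change -0.087, SE 0.139). The fall there in fkh1Δ was lost under median centring and without fkh1Δ replicate 1, and that in fkh1Δfkh2Δ2C without WT replicate 1. Within ISC10 at 549826 on V they were 7.56, 6.58, 8.88 and 10.8, and the rise in fkh1Δfkh2Δ2C (log2 change 0.43, limma adjusted p = 0.0467) was lost under median centring, with the replicate block and in 8 of the 10 fits without 1 library. Just outside the limit, between 30 and 35 kb from an end, 4 more peaks lay on I, IX, XII and XIII. The one at 31676 on XIII had means of 99.0 in WT, 38.6 in fkh1Δ, 5.49 in fkh1Δfkh2Δ and 7.90 in fkh1Δfkh2Δ2C.

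**Figure D3:**
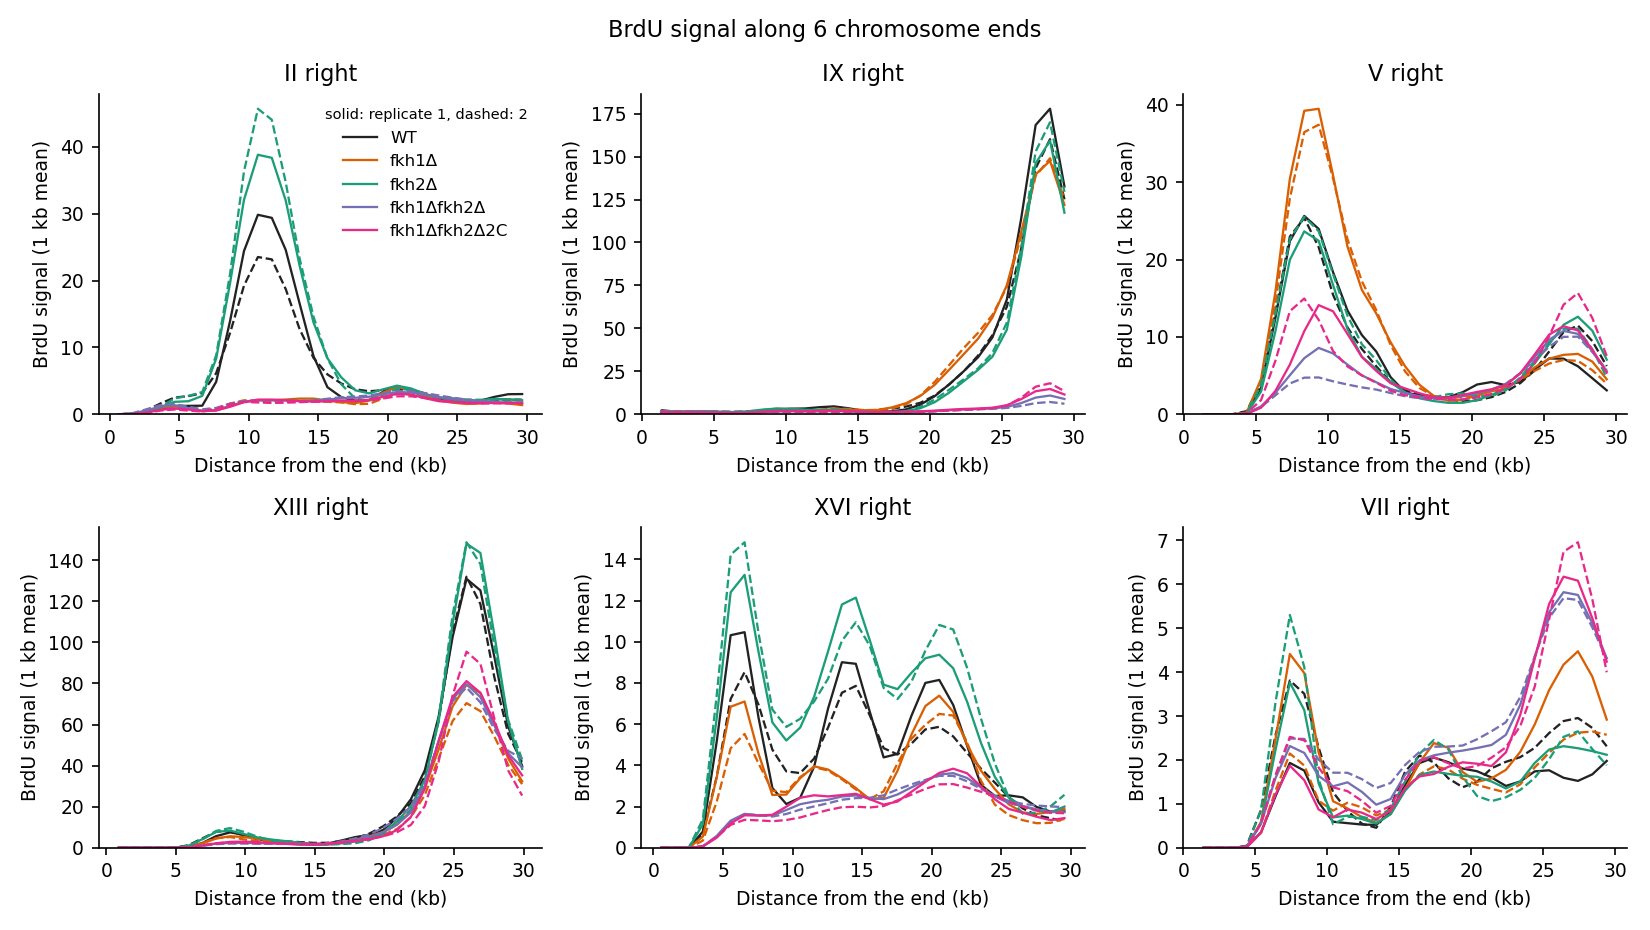
BrdU signal in windows of 1 kb along 6 chromosome ends, by distance from the end in kb, with solid lines for replicate 1 and dashed lines for replicate 2. The peak of II is lost in every strain labelled as lacking FKH1, that of IX in the double mutants alone among these strains, and that of V is highest in fkh1Δ. Of these ends, that of VII shows the double mutants above WT between about 20 and 30 kb.

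Windows were tested in the same way over the genome, with the lowest 10% of windows left out, which kept 447 of the 834 subtelomeric windows and 10856 in all. A window could stay in through signal in a single group, so counts are over windows tested and not over all members. Of the 447, 15 rose and 56 fell in fkh1Δ (background 10.2% and 9.88%, or 20.1% in either direction, limma, adjusted p under 0.05). In fkh1Δfkh2Δ, 20 rose and 143 fell (background 25.3% and 22.8%, or 48.1%), and in fkh1Δfkh2Δ2C, 11 rose and 155 fell (background 22.5% and 19.8%, or 42.4%). As shares of the windows tested the falls were 12.5%, 31.99% and 34.7%, and the rises 3.36%, 4.47% and 2.46%. The shares that rose in the double mutants were below the background and those that fell were above it.

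The size of the change was similar in both double mutants. The 155 windows that fell in fkh1Δfkh2Δ2C had a median log2 change of -1.01, from a median level of 4.66 to 1.89, and 79 of them fell at least 2-fold on the log2(signal + pseudocount) scale. Those that fell in fkh1Δfkh2Δ had a median of -1.03, and 74 passed that size. The median log2 change over all windows tested near ends was -0.32 in fkh1Δfkh2Δ2C and -0.25 in fkh1Δfkh2Δ, against -0.025 and -0.031 over all windows of the genome. Calls numbered 161 without the library labelled fkh1Δfkh2Δ2C replicate 1, against 166, and 119 without the library labelled fkh1Δfkh2Δ replicate 1, against 163.

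For fkh1Δ the count depended more on single libraries, with 113 windows called without WT replicate 1, 41 without fkh1Δ replicate 1 and 36 without fkh1Δ replicate 2, against 71. The windows that fell in fkh1Δ had a median level of 7.99 in WT and 2.98 in the mutant. In fkh2Δ, 0 of 447 windows were called by limma (background 0%), while 76 had an unadjusted p below 0.05, of which 46 were higher than WT and 30 lower. Leaving out WT replicate 2 gave 24 calls in fkh2Δ and leaving out WT replicate 1 gave 1, and leaving out the library labelled fkh2Δ replicate 2 gave 0.

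The double mutant labelled 2C was also set against the other mutants. Against fkh1Δ, 10 windows rose and 113 fell (background 19.6% and 15.7%), with a median log2 change of -0.25 over the 447. Without fkh1Δfkh2Δ2C replicate 2, 77 windows were called against 123, and without the library labelled fkh1Δfkh2Δ2C replicate 1 there were 113. Against fkh1Δfkh2Δ, 0 windows were called by limma (background 0%), and 25 had an unadjusted p below 0.05, of which 12 were higher and 13 lower. Without the library labelled fkh1Δfkh2Δ2C replicate 1 there were 14 calls in that comparison, and 7 without the library labelled fkh1Δfkh2Δ replicate 1. The median log2 difference between these strains was -0.079, with a median SE of 0.185 for a single window.

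Falls were called at every distance from the end, and the number of windows that could be tested grew with that distance. In fkh1Δfkh2Δ2C, 13 windows fell of 22 tested and 134 in all within 5 kb, and 29 of 55 tested and 140 in all from 5 to 10 kb. In the 4 further steps of 5 kb, of 140 windows each, 22 of 73 tested fell, then 26 of 83, 31 of 103 and 34 of 111. Without the library labelled fkh1Δfkh2Δ2C replicate 1 the falls over the 6 steps were 11, 27, 30, 29, 26 and 27. The share of falls was largest within 10 kb over the windows tested and smallest within 5 kb over all windows, so no order by distance is read from these counts. The 11 rises lay beyond 20 kb. Between 30 and 60 kb from an end 16.7% of windows tested rose and 20.5% fell, and beyond 60 kb the shares were 24.5% and 18.8%.

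Falls were called at 19 of 28 ends in fkh1Δfkh2Δ2C, 18 in fkh1Δfkh2Δ and 14 in fkh1Δ. Over all windows tested in the genome 19.8%, 22.8% and 9.88% fell in these strains. No count was made for stretches of 30 kb elsewhere in the genome, so the counts by end only describe the ends. Without the libraries labelled fkh1Δfkh2Δ2C replicate 1 and fkh1Δfkh2Δ replicate 1, each left out of its own comparison, falls were called at 18 ends in both strains. The right ends of XVI and XIII had the most in fkh1Δfkh2Δ2C, with 18 falls each, followed by 16 at the right end of IX and 16 at the left end of XV. In fkh1Δfkh2Δ the right end of XVI had 18 and the right end of IX 16. In fkh1Δ the right end of II led with 10. No window was called in fkh1Δfkh2Δ2C at 7 ends. The windows tested at these ends ran from 0 at the right end of I to 10 at the right end of X, so they are not shown to be unchanged.

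The largest single fall in fkh1Δ was at 801001 to 802000 on II, in MAL33, with a log2 change of -3.57 (SE 0.183, limma adjusted p = 1.39e-06). WT had 29.4 and 23.2 there and fkh1Δ 2.10 and 1.81. In fkh1Δfkh2Δ the largest fall was at 412001 to 413000 on IX, over DCG1 and DAL7, from 168 and 143 in WT to 9.74 and 6.54 (log2 change -4.24, limma adjusted p = 1.75e-08). Against fkh1Δ, the largest fall of fkh1Δfkh2Δ2C was at 415001 to 416000 on IX in DAL3, a gene of ureidoglycolate breakdown, from 57.1 ± 1.08 to 3.74 ± 0.142 (log2 change -3.84, adjusted p = 9.21e-08).

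Rises were few and clustered. On the right arm of VII, a run of 11 windows rose in fkh1Δfkh2Δ from 1061001 to 1072000, over ERV29, ZUO1, BIO2, IMA1 and MAL13, which includes the biotin synthase gene and genes for isomaltose and maltose. The mean of the run was 1.95 ± 0.395 in WT, 2.36 ± 0.596 in fkh1Δ, 1.82 ± 0.0939 in fkh2Δ, 3.97 ± 0.0391 in fkh1Δfkh2Δ and 3.89 ± 0.0323 in fkh1Δfkh2Δ2C. The largest single rise was in this run at 1063001 to 1064000, from 1.52 and 2.96 in WT to 6.08 and 6.96 in fkh1Δfkh2Δ2C (log2 change 1.49, SE 0.281, limma adjusted p = 0.00112). The next window, in BIO2, had the largest rise of fkh1Δfkh2Δ against WT, from 1.60 and 2.89 to 5.82 and 5.69 (1.31, adjusted p = 0.00149). It also had the largest rise of fkh1Δfkh2Δ2C against fkh1Δ (0.95, adjusted p = 0.016), which was lost without fkh1Δ replicate 2 and without fkh1Δfkh2Δ2C replicate 2. On the left arm of XIV, 4 windows rose in fkh1Δfkh2Δ from 26001 to 30000, over EGT2, PFA3 and FIG4, from 1.81 ± 0.446 in WT to 3.58 ± 0.106 and 3.29 ± 0.148 in the double mutants.

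In fkh1Δ the runs of rises differed in place. From 561001 to 568000 on V, 7 windows rose from 10.8 ± 1.17 to 19.4 ± 0.0981, with the largest rise at 562001 to 563000 (log2 change 0.99, limma adjusted p = 0.0029). From 417001 to 422000 on IX, over MGA2, LYS1 and NRE1, 5 windows rose from 12.6 ± 0.423 to 19.8 ± 1.07, where the double mutants had 1.92 and 2.07. Runs of falls included 24001 to 30000 on XIII, over the phosphate transporter gene PHO84, the signalling GTPase gene GTR1 and the NADH dehydrogenase gene NDI1, from 26.6 ± 0.232 in WT to 12.6 in fkh1Δ, 3.08 in fkh1Δfkh2Δ and 3.15 in fkh1Δfkh2Δ2C. A further run from 640001 to 645000 on XI, over the silencing gene SIR1, fell from 4.05 ± 0.547 in WT to 2.15 ± 0.115 in fkh1Δ.

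The windows within 2 kb of an end were singled out after their values were seen. Only 13 such windows were tested, at the left ends of I, II, VIII, XI, XII and XV and the right ends of IX and XI, and the others were among the lowest windows left out. In fkh1Δfkh2Δ2C 12 of them fell, in fkh1Δfkh2Δ 10, in fkh1Δ 3 and in fkh2Δ 0, beside falls of 19.8%, 22.8%, 9.88% and 0% over all windows, and 0 rose in these strains. Without each double mutant's doubted library the falls were 10 and 9. A window can pass the filter through the group where it is high, so these counts only describe the windows. The window at 1 to 1000 on VIII, in the Y' gene YHL050C, had the largest fall of fkh1Δfkh2Δ2C. Its signal lay at 11.6 and 6.96 in WT, 6.18 and 4.95 in fkh1Δ, 8.74 and 11.01 in fkh2Δ, 0.569 and 1.02 in fkh1Δfkh2Δ, and 0.309 and 0.741 in fkh1Δfkh2Δ2C (log2 change -3.60, SE 0.315, limma adjusted p = 3.61e-06). At 1 to 1000 on II, in the Y' gene YBL113C, the means were 11.1, 8.17, 10.6, 1.08 and 1.09 in the same order of strains. Y' elements share reads between near-identical copies, so these values are uncertain for any single end, and copy number differences between strains were not tested.

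Rpb3 signal was low near the ends. There 72.5% of Rpb3 bins within 5 kb and 48.7% from 5 to 10 kb were listed at 0 in every library. For RNA the share was 77.75% within 5 kb. Places without polymerase and repeats whose reads were not assigned cannot be told apart in these bins. Mean Rpb3 signal in asynchronous WT was 5.11 ± 0.150 within 5 kb, 14.04 ± 1.57 from 5 to 10 kb, 28.7 ± 4.55 from 15 to 20 kb and 46.3 ± 2.15 from 25 to 30 kb. Mean RNA signal was also lower close to the end, at 0.0522 ± 0.00173 within 5 kb and 0.457 ± 0.0389 from 25 to 30 kb in G1 WT. In asynchronous WT the means were 0.103 and 0.580. Replicate 1 counts the Watson strand only there and replicate 2 both strands, so no spread is given. Of 320 protein-coding genes placed there, 65 had a mean Rpb3 signal under 1, or 20.3%, against 1.49% of genes over 30 kb from an end. All 8 Y' helicase genes of the YRF1 family were among them, as were 10 of 18 seripauperin (PAU) genes, 3 of 10 COS genes, 2 of 7 hexose transporter genes and 3 of 13 maltose and isomaltose genes. Reads of these families may be split or dropped between near-identical copies. None of the 8 iron and siderophore genes, 4 phosphate genes, 4 aryl-alcohol dehydrogenase genes or 5 thiamine and vitamin B6 genes was under 1.

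Between the strains, mean Rpb3 signal near the ends was lower in fkh1Δfkh2Δ2C. Over the 834 windows it was 27.8 and 24.6 in asynchronous WT, 21.4 and 21.7 in asynchronous fkh1Δfkh2Δ2C, 26.8 and 26.2 in G1 WT, and 24.0 and 24.0 in G1 fkh1Δfkh2Δ2C. The mutant libraries lay below WT in both cultures, at 82.1% and 90.4% of the WT mean, against 101% and 100.4% over 30 kb from an end. As for BrdU, the shares over 30 kb from an end stay close to WT in any case and are not a separate control. Without the 2 windows over PHO84 the subtelomeric shares were 83.1% and 93.0%. Medians over the windows differed less, at 23.5 and 21.8 in asynchronous WT and 19.5 and 21.1 in asynchronous fkh1Δfkh2Δ2C. In G1 the medians overlapped, at 24.3 and 23.7 in WT and 24.0 and 24.0 in fkh1Δfkh2Δ2C. The widest G1 gaps were at the left ends of XIII (65.5 in WT, 40.3 in fkh1Δfkh2Δ2C), IX (58.1 and 41.2) and XV (43.4 and 35.4). Mean RNA signal was 96.7% of WT in asynchronous cells and 97.6% in G1. Fewer cells carrying a signal and less signal per cell cannot be told apart in these bulk samples.

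**Figure D4:**
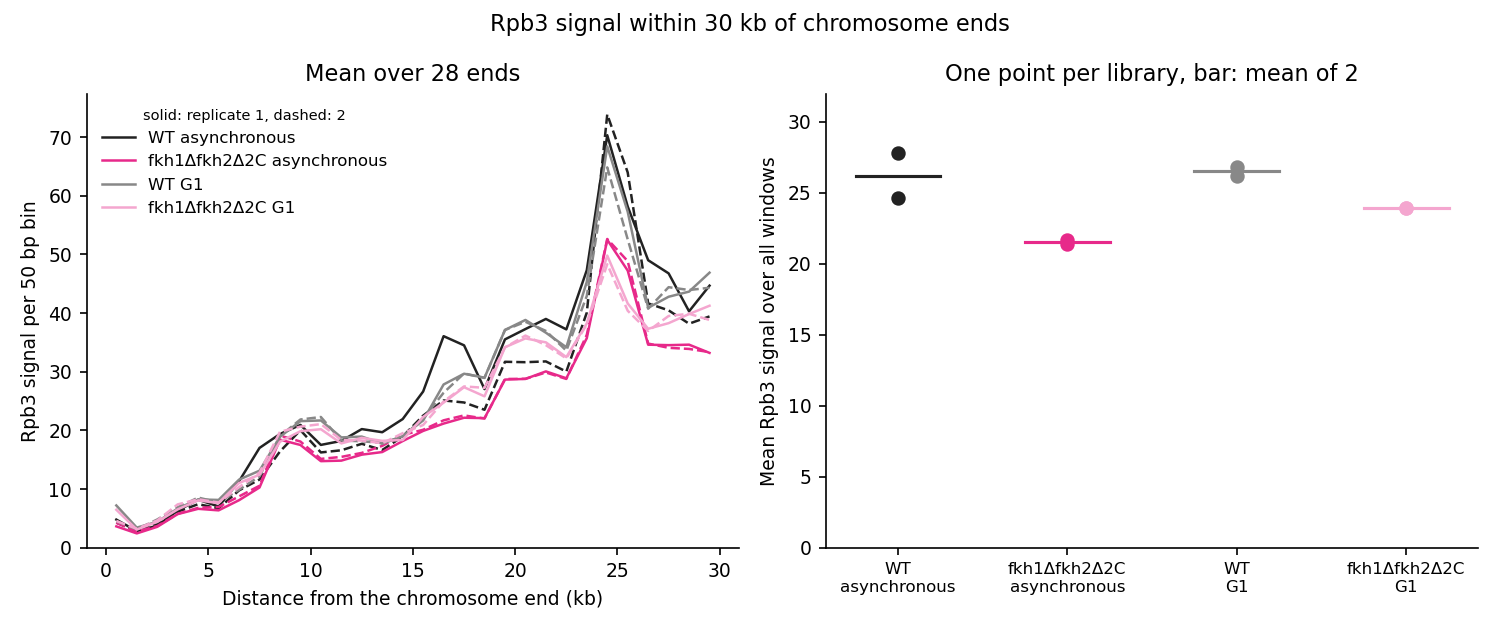
Left, mean Rpb3 signal over the 28 ends by distance from the chromosome end in kb for each of 8 libraries, solid for replicate 1 and dashed for replicate 2. Right, the mean over the 834 windows with 1 point per library and a bar at the mean of 2, where the fkh1Δfkh2Δ2C libraries lie between 21.4 and 24.0 and the WT libraries between 24.6 and 27.8.

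The difference did not pass the test in any single window or gene. In asynchronous cells limma called 0 of 405 windows and 0 of 159 genes (background 0% for both), while 123 windows passed an unadjusted p under 0.05, 111 of them lower in fkh1Δfkh2Δ2C, as did 57 genes, 55 of them lower. In G1 it called 0 windows and 0 genes (background 0%), and 30 windows (26 lower) and 8 genes (8 lower) passed the unadjusted p. Both mutant libraries lay below both WT libraries in 226 of 405 windows in asynchronous cells, or 55.8%, where the background was 31.2%. In G1 they did so in 123 windows, or 30.4% (background 17.2%). Among genes the counts were 98 of 159, or 61.6% (background 35%), and 60, or 37.7% (background 20.9%). By end, they lay below at 21 of 28 ends and above at 0 in asynchronous cells, and below at 13 and above at 1 in G1. The counts by end have no share over the genome to set beside them.

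The 2 asynchronous WT libraries themselves differed near the ends. Replicate 1 was over 1.5 times replicate 2 in 59 of the 405 windows, or 14.6%, against 8.53% of all windows tested. The reverse held in 11 windows, or 2.72%, against 9.97%. At 26001 to 27000 on VIII, beside the methionine permease gene MUP3, replicate 1 had 213 and replicate 2 had 40.1, while the other 6 libraries lay between 31.1 and 48.8. At 16001 to 17000 on V, in DLD3, they had 364 and 144. Without replicate 2, limma called 173 windows and 83 genes between the asynchronous strains, and without replicate 1 it called 1 window and 1 gene. Over the 834 windows both asynchronous mutant libraries lay below WT replicate 2 as well, at 21.4 and 21.7 against 24.6.

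RNA near the ends gave no call between the strains. Limma called 0 of 1068 stranded windows and 0 of 188 genes in asynchronous cells, and 0 and 0 in G1 (background 0% for windows in both, 0% for genes in asynchronous cells, 0.037% higher and 0.0185% lower, or 0.0555%, for genes in G1). At an unadjusted p under 0.05 there were 61 windows and 13 genes in asynchronous cells and 103 windows and 9 genes in G1. The median SE of a single RNA window was 1.13 and 0.98 on the log2 scale in these comparisons, so a change of 2-fold was not detectable there. For genes it was 0.57 and 0.47. Genes and stranded windows on the Crick strand had 1 usable asynchronous library per strain.

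Rpb3 signal was also read in the windows where BrdU fell in fkh1Δfkh2Δ2C. The 120 windows with a BrdU fall that were tested for Rpb3 had a median Rpb3 log2 change of -0.22 in asynchronous cells, and the other 285 had -0.17. In G1 the medians were -0.042 and -0.048. The median SE of a window was 0.123. Limma called 0 of the 120 in Rpb3 in either culture, with 38 and 14 at an unadjusted p under 0.05. The 9 windows with a BrdU rise had medians of 0.13 and 0.043. BrdU was labelled in cells under hydroxyurea and Rpb3 was not measured there, so the assays describe different cultures.

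Arrest in G1 changed polymerase signal at a small number of subtelomeric places. Against asynchronous cells, 19 of 405 Rpb3 windows rose and 10 fell in WT (background 2.39% and 1.24%), and 26 rose and 11 fell in fkh1Δfkh2Δ2C (background 2.16% and 0.534%). Of 159 genes, 9 rose and 2 fell in WT (background 2.44% and 1.35%), and 8 rose and 4 fell in fkh1Δfkh2Δ2C (background 1.7% and 0.5%). These counts moved with single libraries. In WT there were 61 windows and 22 genes without asynchronous WT replicate 1, 141 and 65 without replicate 2, 14 and 4 without G1 WT replicate 1, and 7 and 2 without replicate 2. Without either asynchronous fkh1Δfkh2Δ2C library there were 16 windows and 5 genes. In fkh1Δfkh2Δ2C there were 99 windows and 52 or 53 genes without an asynchronous WT library, and 7 or 5 windows and 0 genes without an asynchronous fkh1Δfkh2Δ2C library. Leaving out fkh1Δfkh2Δ2C G1 replicate 2 gave 7 windows and 2 genes, and each of the other 3 G1 libraries 14 windows and 5 genes. In WT, YER187W and EGT2 were called in every one of these fits, and every gene call in fkh1Δfkh2Δ2C was lost in at least 2.

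The strongest rise was in YER187W on the right arm of V. Its Rpb3 signal was 33.8 and 29.7 in asynchronous WT, 216 and 236 in G1 WT, 21.5 and 23.2 in asynchronous fkh1Δfkh2Δ2C, and 157 and 191 in G1 fkh1Δfkh2Δ2C. G1 libraries were several times the asynchronous ones in both strains, with log2 changes of 2.69 (SE 0.160, limma adjusted p = 0.00142) in WT and 2.75 (adjusted p = 0.00185) in fkh1Δfkh2Δ2C. RNA of YER187W was listed at 0 in 5 of 8 libraries and reached 0.482 at most. Its neighbour YER188W rose too, by 1.16 and 1.57 on the log2 scale. The windows from 565001 to 569000, which hold both genes, include the BrdU peak at 567926. The window at 566001 to 567000 had the largest Rpb3 rise of any subtelomeric window in both strains, with log2 changes of 2.496 in WT and 2.40 in fkh1Δfkh2Δ2C.

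EGT2, which acts in the separation of mother and daughter cells, fell in G1 in both strains. It had Rpb3 values of 166 and 143 in asynchronous WT, 27.3 and 23.1 in G1 WT, 108 and 116 in asynchronous fkh1Δfkh2Δ2C, and 30.4 and 23.1 in G1 fkh1Δfkh2Δ2C. The asynchronous mutant lay below asynchronous WT, and the G1 libraries of the strains overlapped. The window at 25001 to 26000 on XIV, in EGT2, had the largest Rpb3 fall of both strains (-2.54 and -2.00). The log2 change of the gene was -2.43 in WT (limma adjusted p = 0.00152) and -1.92 in fkh1Δfkh2Δ2C (adjusted p = 0.00389). EGT2 RNA went from 4.44 and 5.19 to 0.163 and 0.0223 in WT (log2 change -5.12, adjusted p = 0.00129) and from 2.76 and 3.36 to 0.182 and 0.211 in fkh1Δfkh2Δ2C (-3.58, adjusted p = 0.00965). DSE4, a daughter-cell glucanase, had Rpb3 values of 73.8 and 83.5 in asynchronous WT and 33.3 and 30.4 in G1 WT (log2 change -1.20), and 65.4 and 61.9 against 33.1 and 27.4 in fkh1Δfkh2Δ2C (-0.99). Next to EGT2, Rpb3 signal over the palmitoyltransferase gene PFA3 fell in fkh1Δfkh2Δ2C (-0.59, limma adjusted p = 0.0196). A run of falls from 24001 to 28000 covers both genes and Rpb3 signal has no strand. Whether the fall over PFA3 is apart from that of EGT2 was not tested. PFA3 RNA had a log2 change of 1.09 with arrest in that strain, against 1 asynchronous library.

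PHO84, the high-affinity phosphate transporter on the left arm of XIII, carried the highest Rpb3 signal of the genes called. It had 501 and 739 in asynchronous WT, 528 and 384 in G1 WT, 371 and 419 in asynchronous fkh1Δfkh2Δ2C, and 114 and 102 in G1 fkh1Δfkh2Δ2C. Only the arrested mutant was low. Its fall with arrest was called in fkh1Δfkh2Δ2C (log2 change -1.83, SE 0.305, limma adjusted p = 0.0359) and lost with the replicate block, with no filter, and without any 1 G1 library. The difference from WT in G1 was -2.02 with an adjusted p of 0.245, and the test of the difference between the strains' responses gave -1.40 with an adjusted p of 0.652. PHO84 RNA in G1 was 26.6 and 12.9 in WT and 13.7 and 10.2 in fkh1Δfkh2Δ2C.

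Among the other rises, PGU1, a secreted pectin-degrading enzyme on the right arm of X, went from 28.8 and 31.2 to 63.3 and 71.2 in WT (log2 change 1.06, limma adjusted p = 0.0035) and from 23.7 and 21.9 to 57.7 and 65.3 in fkh1Δfkh2Δ2C (1.29, adjusted p = 0.00289). It lies in a run of 5 windows from 721001 to 726000 with the allantoate permease gene DAL5 that rose in both strains. PCA1, a metal-exporting ATPase, rose in WT from 32.4 and 33.0 to 46.2 and 48.2 (0.48, adjusted p = 0.0203). In fkh1Δfkh2Δ2C, MAL33 rose from 25.4 and 26.8 to 39.6 and 37.9 (0.50, adjusted p = 0.0399), the siderophore transporter gene ARN2 by 0.49 (adjusted p = 0.0475) and the methylmethionine permease gene MMP1 by 0.43 (adjusted p = 0.0278). Asynchronous fkh1Δfkh2Δ2C lay below asynchronous WT for MAL33, ARN2 and MMP1, while G1 values of the strains were closer for MAL33 and MMP1.

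The other genes called were DIA1, YDL241W and YMR316C-A in WT, with log2 rises of 0.81 to 0.97, and YOL164W-A and YNR066C in both strains, with 1.13 and 0.74 in WT and 1.17 and 0.52 in fkh1Δfkh2Δ2C. YMR316C-A and DIA1 share a window on XIII, and Rpb3 signal has no strand, so their values cannot be told apart. At IX 23001 to 27000, over CSS1, 4 windows rose in fkh1Δfkh2Δ2C from 74.2 to 179, and the WT means there were 138 and 267. Over 159 genes tested, 0 differed between the strains in their response to arrest (limma, background 0%), and 14 did at an unadjusted p under 0.05. Without asynchronous WT replicate 2 there were 60.

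**Figure D5:**
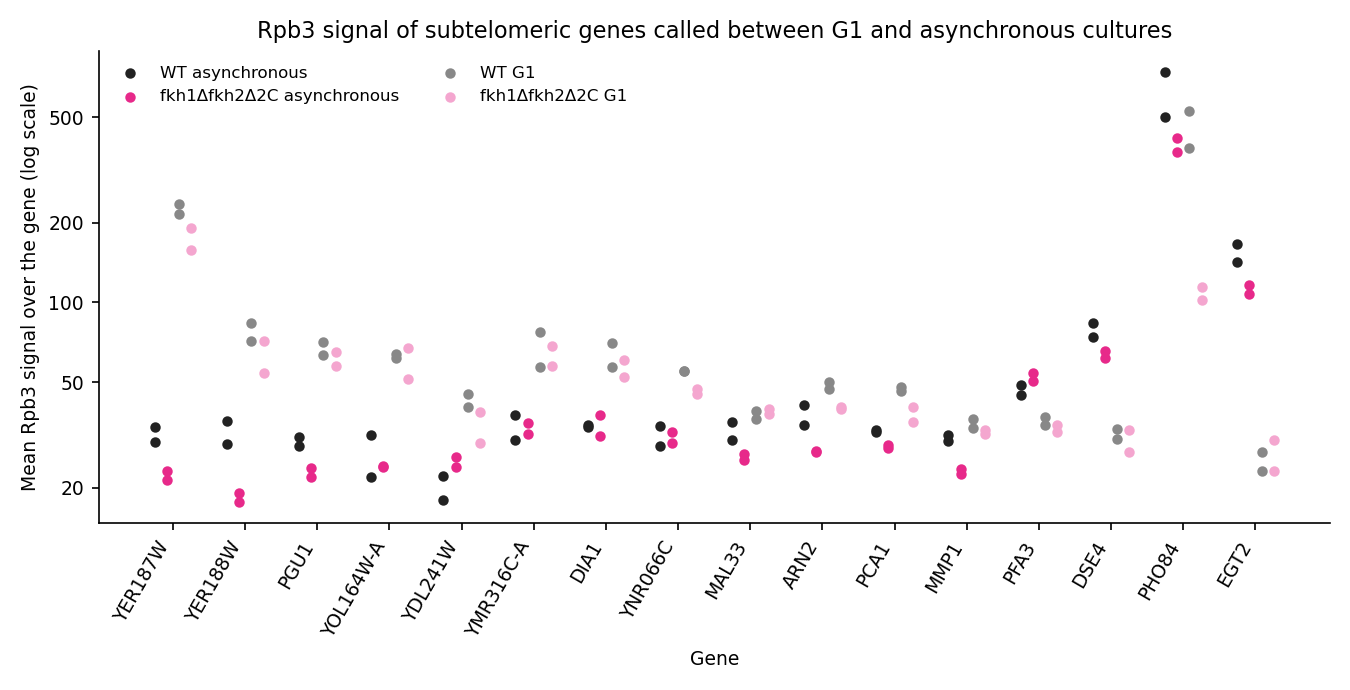
Mean Rpb3 signal on a log scale for the 16 subtelomeric genes called between G1 and asynchronous cultures in either strain, with 1 point per library. YER187W stands at 216 and 236 in G1 WT against 33.8 and 29.7 in asynchronous WT, EGT2 shows the opposite order, and PHO84 is low in G1 fkh1Δfkh2Δ2C alone.

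RNA calls with arrest were fewer. Of 188 genes, 2 rose and 2 fell in WT (background 0.87% and 1.33%), and 1 rose and 1 fell in fkh1Δfkh2Δ2C (background 0.389% and 0.222%). The calls other than EGT2 were each lost without either G1 library of WT and with no filter, and the EGT2 call in fkh1Δfkh2Δ2C was also lost with no filter and without any 1 of that strain's asynchronous or G1 libraries. The calls of DSE4, SRY1 and COX14 each set G1 against 1 asynchronous library with a value, which is assumed to vary like the other groups, so they have no replicate check in that arm. DSE4 was called lower in WT, from 2.27 in that library to 0.117 and 0.0412 (log2 change -4.08, limma adjusted p = 0.028). SRY1, a hydroxyaspartate dehydratase, was called higher in WT, from 0.388 in 1 library to 2.35 and 2.91 (2.57, adjusted p = 0.0251). YMR315W rose in WT from 0.835 and 0.546 to 2.18 and 2.36 (1.65, adjusted p = 0.0396). COX14, a factor of cytochrome oxidase assembly, was called in fkh1Δfkh2Δ2C with its 1 asynchronous library listed at 0 and 1.31 and 2.23 in G1, so no fold is given. No stranded window was called by limma with arrest in either strain (background 0.00921% and 0.00461% higher, 0% lower), with 156 and 93 at an unadjusted p under 0.05.

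By gene family, few subtelomeric members could be tested for Rpb3. Between the strains 0 members of any list were called. The 6 iron and siderophore genes tested had a median log2 change of -0.29 in asynchronous cells and -0.29 in G1, all 6 below 0 in both. Medians were -0.037 and -0.0066 over all genes tested, and -0.23 and -0.075 over the 159 subtelomeric genes tested. The 4 COS genes tested had medians of -0.19 and 0.088, the 3 maltose genes -0.28 and 0.016, and the 2 aryl-alcohol dehydrogenase genes -0.30 and -0.11. The 2 phosphate genes had -0.55 and -1.27, which includes PHO84, and the 1 hexose transporter gene had -0.21 and -0.0071. BIO2, the 1 biotin gene there, had 0.10 and -0.044. With arrest, 1 of the 6 iron genes rose in fkh1Δfkh2Δ2C (ARN2), 1 of the 3 maltose genes rose there (MAL33) and 1 of the 2 phosphate genes fell there (PHO84), where 1.7% of all genes tested rose and 0.5% fell. In WT 0 were called in these lists, where 2.44% rose and 1.35% fell. No PAU, flocculin, thiamine or YRF1 gene passed the filter on low Rpb3 signal. For RNA, 0 members of these lists were called in any comparison.

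The factors that act at telomeres were looked at wherever they lie in the genome, in a list of 26 genes such as SIR2, SIR3, RAP1, RIF1 and YKU70. RIF1 and EST2 were not tested for Rpb3. None of the 24 tested for Rpb3 was called between the strains (background 0% in both cultures). Their median log2 changes were 0.012 in asynchronous cells and 0.057 in G1, against -0.037 and -0.0066 over all genes tested. With arrest in WT, RIF2, which limits telomere length, rose by 0.69 on the log2 scale (limma adjusted p = 0.0405) and HST3, a histone deacetylase, fell by 1.29 (adjusted p = 0.00231). Over all genes tested 2.44% rose and 1.35% fell in that comparison. HST3 RNA also fell in WT, by 1.79 (limma adjusted p = 0.0469, background 1.33% lower). No factor of the list was called with arrest in fkh1Δfkh2Δ2C for Rpb3 (background 1.7% higher and 0.5% lower).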

How the data were processed

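The authors deposited 3 tables, 1 per assay, with normalized signal per 50 bp bin for 26 libraries (10 BrdU, 8 RNA, 8 Rpb3), per the file headers. Aligner, build and normalization method: not given in the sources used here. Depth is unknown. Among the RNA columns 2 share a name and were not used. Bins were averaged over windows of 1 kb, BrdU peaks and genes. The names, order and strand of 6002 genes, from RefSeq's table for R64, were placed by fitting them to the stranded RNA, with a shift within 1 bin for 96.1%. Most signal was on the sense strand for 92.5% of genes and 72.2% of the 320 subtelomeric ones.

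Values were tested as log2(signal + 10% of the median) by limma 3.58.1 (R 4.3.3, variance trend), fitting every group of an assay together. Tests were 2-sided, with Benjamini-Hochberg adjustment over all features and a threshold of 0.05. The pseudocount was 0.270 for BrdU windows, 1.95 for peaks, 3.74 for Rpb3 windows and 4.02 for Rpb3 genes, 0.0125 for RNA windows and 0.0641 for RNA genes, and it understates the change of low features. The lowest 10% were left out, except for peaks. The scripts were tested on simulated data. Summaries used Python 3.11.15 with numpy 2.4.6 and pandas 2.3.3.

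All peaks were named, and per comparison the ends with the most called windows, the largest called rise and fall, and up to 6 called genes in each direction, with called list members; other windows and genes were named after their values were seen. The members and lists were chosen with earlier results of these data known. Alternatives were a pseudocount of 50% of the median, median centring, no filter, windows of 2 kb, peaks within 5 kb, the replicate number as a block, and leaving out each library. Same-numbered samples were not taken as pairs, since no label says that they share a culture or day and not every pair of groups had deviations correlated above 0.1. That held for 3 of 10 pairs for BrdU (-0.216 to 0.282), 5 of 6 for Rpb3 (0.0619 to 0.483) and 2 of 6 for RNA (-0.0055 to 0.121). No sequence is printed, since the tables used here hold none.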

Additional observations from a re-analysis of the deposited data

How the results depend on the processing

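No result changed sign under any alternative run. Leaving out 1 library at a time moved many of the counts of subtelomeric calls. For BrdU windows the counts ran from 36 to 113 in fkh1Δ against WT, 0 to 24 in fkh2Δ, 119 to 202 in fkh1Δfkh2Δ, 124 to 205 in fkh1Δfkh2Δ2C, 77 to 168 in fkh1Δfkh2Δ2C against fkh1Δ, and 0 to 14 against fkh1Δfkh2Δ. For BrdU peaks they ran from 5 to 8 in fkh1Δ, 0 to 4 in fkh2Δ, 9 to 10 in fkh1Δfkh2Δ and 9 to 11 in fkh1Δfkh2Δ2C. For Rpb3 windows they ran from 0 to 173 between asynchronous strains, 0 to 5 between strains in G1, 7 to 141 for arrest in WT and 5 to 99 for arrest in fkh1Δfkh2Δ2C, and for Rpb3 genes from 0 to 83, 0 to 1, 2 to 65 and 0 to 53, with 0 to 60 for the difference between the strains' responses. For RNA windows they ran from 0 to 43, 0 to 46, 0 to 108 and 0 to 47 in the same 4 comparisons, against 0 each, and for RNA genes from 1 to 3 for arrest in WT and 0 to 2 in fkh1Δfkh2Δ2C, with 0 in the others. The cause of these moves was not tested.

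With no filter, RNA window calls were 48 between asynchronous strains, 1 in G1, 42 for arrest in WT and 34 in fkh1Δfkh2Δ2C, and RNA gene calls were 5 between asynchronous strains, 8 for arrest in WT and 5 for the difference between responses. RNA windows of 2 kb gave 14 calls for arrest in WT and 8 in fkh1Δfkh2Δ2C, median centring gave 3 and 1, and the larger pseudocount gave 1 in WT. For BrdU peaks, median centring left 5 calls in fkh1Δ, and in fkh2Δ the larger pseudocount gave 1 call and the mean within 5 kb gave 4. Same-numbered samples shared only a number. With the replicate number as a block, RNA gene calls for arrest were 9 in WT, against 4, and 5 in fkh1Δfkh2Δ2C, against 2, and the other 26 counts stayed within 1.5 times.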
